A study of Mus musculus with 12 samples.

Results

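The dystrophin-glycoprotein complex genes examined here were Dmd, Utrn, Dag1, Sgca, Sgcb, Sgcd, Sntb1 and Dtna, chosen by gene name from the deposited RNA-seq tables. By this choice all 8 belong to the 10289 genes that had a row in at least 1 of the 3 tables. The complex spans the muscle cell membrane and couples the actin cytoskeleton inside the cell to laminin outside it. Dystrophin or its paralog utrophin binds actin and the cytoplasmic tail of dystroglycan, the sarcoglycans stabilise dystroglycan in the membrane, and syntrophins and dystrobrevin attach signaling proteins to the inner face. Loss of dystrophin causes Duchenne muscular dystrophy, and loss of a sarcoglycan causes a limb-girdle muscular dystrophy.

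RNA was sequenced from stable lines of C2C12, a mouse myoblast line that divides in growth medium (GM) with fetal bovine serum and fuses into myotubes in differentiation medium (DM) with horse serum. The 4 groups of 2 libraries each were GFP-overexpressing cells in GM (day 0), the same line at day 4 of DM (D4), and lines overexpressing either METTL3 or METTL14 that were kept in GM. METTL3 and METTL14 form the methyltransferase that writes N6-methyladenosine (m6A) on mRNA. Both mouse cDNAs and the GFP control were carried by lentiviral vectors with a CMV promoter, and the cells were selected with puromycin as stable lines, so each group is a selected line rather than a series of separate animals or donors. For the METTL14-overexpressing libraries the titles give day 0 and the time point field gives D4, and the titles were followed. A further 4 libraries of m6A immunoprecipitation and input from GFP-overexpressing cells were not analysed here.

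The only level in the tables is the authors' mean normalized count, 1 value per gene, averaged over libraries after each library was scaled for its depth. The 1368 genes in both the D4 and the METTL3 table, the 857 in both the D4 and the METTL14 table and the 809 in both overexpression tables carried equal means, with a largest relative difference of 4.77e-10. The means therefore come from a common set of libraries and do not separate myoblasts from myotubes or METTL3- and METTL14-overexpressing cells from controls. By their labels 6 of the 8 RNA-seq libraries are from GM and 2 from D4, so if the means run over all of them they weigh GM more than D4. No library has a value of its own, so no level below has an error, no difference between groups was tested, and the depth of the libraries is unknown from the files. Fold changes and p-values of the authors' comparisons are also in the tables and were not used.

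Markers of skeletal muscle and a short list of markers of other cell types were looked for among the listed genes. All 9 muscle markers looked for had a row, and their mean normalized counts per kb of exon ran from 285 for Myf5 to 34861 for Acta1. Of 9 markers of endothelial, blood, neural and fibro-adipogenic cells, 8 had no row. The remaining one, the fibro-adipogenic marker Pdgfra, was at 52.4 mean normalized counts per kb of exon. A gene without a row has no value here, so its absence from the tables is not a level of 0. The targeted genes Mettl3 and Mettl14 had authors' mean normalized counts of 5827 and 6250.5, but a mean over all groups does not check the label of any of them. A count per gene also does not separate the introduced mouse cDNAs from the cells' own Mettl3 and Mettl14 transcripts.

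The complex genes differ widely in size, which matters for comparing their levels because a longer transcript yields more reads. Dmd (ENSMUSG00000045103) lies on the X chromosome of GRCm38 between 82948870 and 85206141 on the forward strand and spans 2257272 bases, of which exons cover 1.05%. Sgcd (ENSMUSG00000020354) spans 1092717 bases of chromosome 11, from 46896253 to 47988969 on the reverse strand, and its exons cover 0.756% of them. Utrn (ENSMUSG00000019820) lies on chromosome 10 from 12382188 to 12869365, Dag1 (ENSMUSG00000039952) on chromosome 9 from 108204634 to 108263958 and Sntb1 (ENSMUSG00000060429) on chromosome 15 from 55636388 to 55906949, all on the reverse strand. The other sarcoglycan genes are compact. Sgca (ENSMUSG00000001508) spans 13537 bases of chromosome 11 from 94962791 to 94976327, and Sgcb (ENSMUSG00000029156) spans 15042 bases of chromosome 5 from 73632749 to 73647790, both on the reverse strand. Dtna (ENSMUSG00000024302) lies on chromosome 18 and spans 244581 bases. The union of annotated exons ran from 1735 bases for Sgca to 23801 for Dmd, with a median of 7307 over the 8 genes against 4274 over the listed genes with an annotated length.

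**Figure D1:**
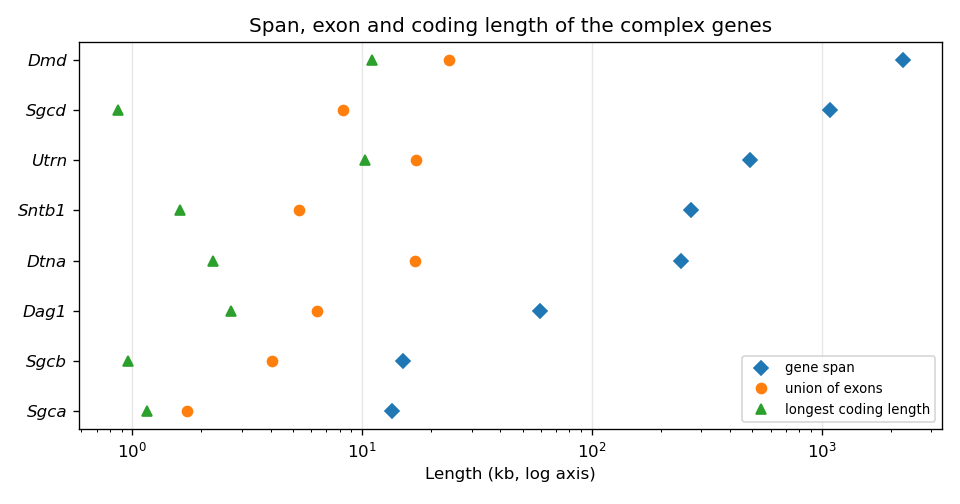
Gene span (diamonds), union of exons (circles) and longest annotated coding length (triangles) of the 8 complex genes, in kb on a log axis. Dmd and Sgcd have the longest spans, 2257272 and 1092717 bases, while their coding lengths are 11034 and 867 bases.

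Dystrophin and utrophin, the rod-shaped proteins that can take the same place in the complex, stood far apart in pooled level. The authors' mean normalized count was 45.7 for Dmd and 3515 for Utrn. Per kb of exon the means were 1.92 for Dmd and 205 for Utrn, a ratio of 107. Other lengths gave ratios of the same order, namely 92.6 per kb of the longest transcript, 82.5 per kb of coding length and 76.9 without any length correction, so Utrn was far higher on each scale. Dmd was the lowest of the 8 genes on each of these scales, and 3.45% of the listed genes were below it per kb of exon, or 0.768% when genes under a mean of 10 were left out. Utrn had 69.7% of the listed genes below it.

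The pooled mean sets a ceiling on what any single group can hold. If it runs over the 8 RNA-seq libraries, the mean of a group of 2 libraries cannot exceed 4 times the pooled mean, which it reaches only when every other library is at 0. For Dmd this ceiling is a mean normalized count of 183, or 7.68 per kb of exon, below the pooled value of 205 for Utrn. The mean of Utrn in a single group is not known, so this does not order Dmd and Utrn within any group. Even at its ceiling Dmd would have only 12.0% of the listed pooled levels below it. The same ceiling for Sgcd is 535 mean normalized counts, or 64.7 per kb of exon. How the counts of Dmd, Utrn or Sgcd are split between GM and D4 cannot be read from the mean.

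Dmd has the most annotated transcripts of the 8 genes, and shorter dystrophins are known to arise from promoters inside the gene. The annotation holds 14 Dmd transcripts between 369 and 14910 bases long, 3 of them coding, with coding lengths from 1812 to 11034 bases. A count per gene sums over them, so the pooled level of Dmd does not distinguish full-length dystrophin from the short forms. Utrn has 13 annotated transcripts, the longest of 12382 bases, and a longest coding length of 10290 bases, close to that of Dmd. Its level is likewise a sum over forms.

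Dag1 encodes the precursor of alpha- and beta-dystroglycan, the laminin receptor of the complex and its membrane-spanning partner. It had the highest authors' mean normalized count of the 8 genes, 7579, and was also highest per kb of exon, at 1192. Of the listed genes 95.9% were below it on the per-kb scale. Per kb of exon the Dag1 mean was 5.80 times that of Utrn, which binds its product, and 621 times that of Dmd. These ratios moved with the length used. Dag1 to Utrn was 4.71 per kb of the longest transcript, 8.28 per kb of coding length and 2.16 without length correction, and Dag1 to Dmd was 437, 683 and 166 on the same scales.

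**Figure D2:**
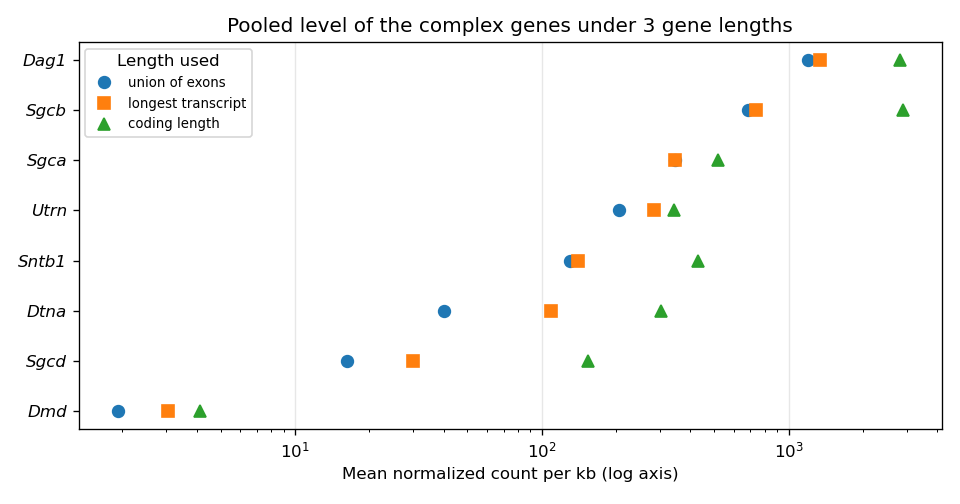
Authors' mean normalized count per kb (log axis) of the 8 complex genes when divided by the union of exons (circles), the longest transcript (squares) or the longest coding length (triangles); each point is a single pooled value without error. Dmd is lowest under all 3 lengths, and Dag1 and Sgcb exchange the first place only under the coding length.

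The sarcoglycans are small membrane glycoproteins that assemble with one another before they reach the cell surface, yet their pooled levels were unequal. Sgcb, for beta-sarcoglycan, had an authors' mean normalized count of 2781, or 686 per kb of exon. The muscle-restricted alpha-sarcoglycan gene Sgca was at 599, or 345 per kb of exon. Sgcd, for delta-sarcoglycan, was at 134, or 16.2 per kb of exon. The order Sgcb, Sgca, Sgcd held under all 3 lengths, but the distance between them did not. The Sgcb level was 42.4 times that of Sgcd per kb of exon, 24.5 times per kb of the longest transcript and 18.8 times per kb of coding length. Sgca exceeded Sgcd 21.3-fold per kb of exon and 3.35-fold per kb of coding length.

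Of the 8 genes Sgcd moved the most between scales. Its exons cover 8257 bases, its longest transcript 4453 and its coding sequence 867, so most of its exon sequence lies outside the coding part. In Sgca the corresponding lengths are 1735, 1724 and 1161 bases, and its level changed little between the first and second of these scales (345 and 348 per kb). Which of these exons C2C12 cells use is not known from a count per gene. The value for Sgcd thus depended on the length taken, from 16.2 per kb of exon to 154 per kb of coding length. Neither value is a limit on its level, because the reads were counted with another annotation release than the lengths.

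Sntb1 encodes beta-1-syntrophin, an adaptor that binds dystrophin, utrophin and dystrobrevin, and Dtna encodes alpha-dystrobrevin, a cytoplasmic relative of dystrophin that carries syntrophins. Their authors' mean normalized counts were close, 692 for Sntb1 and 683 for Dtna. Per kb of exon Sntb1 was at 130.0 and Dtna at 40.3, a ratio of 3.22, which shrank to 1.30 per kb of the longest transcript and 1.41 per kb of coding length. The exon union of Dtna, 16930 bases over 10 transcripts, is far longer than its longest transcript of 6295 bases. Without library values it cannot be said whether Sntb1 and Dtna differed. Dtna was also the one gene of the 8 with exon sequence shared with another annotated gene, 90 bases (0.532% of its exons) on the strand opposite Gm47898, and whether the counting used strand is not given in the sources used here.

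Per kb of exon the order was thus Dag1, Sgcb, Sgca, Utrn, Sntb1, Dtna, Sgcd and Dmd. Neighbours in this order cannot be separated by a test, because no spread over libraries is known, and the order in GM or at D4 alone is not known from a pooled mean. With the coding length, Sgcb stood before Dag1 (2897 and 2829 per kb) and Sntb1 before Utrn (430 and 342 per kb), while the places of Sgca, Dtna, Sgcd and Dmd stayed. The median of the 8 genes was 167.7 mean normalized counts per kb of exon, against 99.6 for the 10285 listed genes with an annotated length and 115 for the 9263 protein-coding ones. The 8 genes ran from 3.45% to 95.9% in the share of listed genes below them and so covered most of the range of listed levels.

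**Figure D3:**
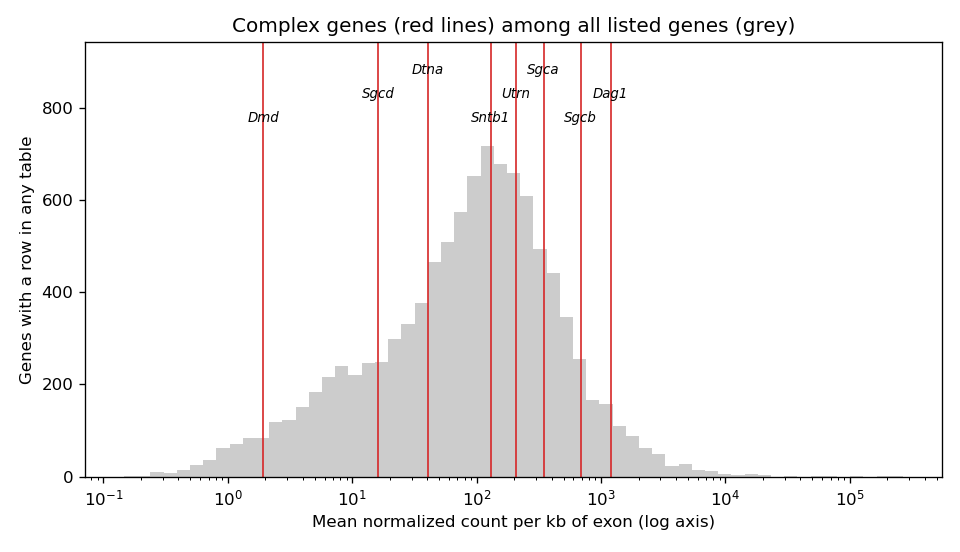
Authors' mean normalized count per kb of exon (log axis) for the 10285 listed genes with an annotated length (grey histogram), with the 8 complex genes as red lines. Dmd sits at 1.92 in the lower tail and Dag1 at 1192 in the upper tail, and the median of all listed genes is 99.6.

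The tables differ in which complex genes they hold. A table keeps a gene when the authors' comparison passed their limit on the false discovery rate (0.05), so a row is their selection, and here it is given as presence only, without direction, size or test. The D4 table, for D4 against GM in GFP-overexpressing cells, held 7 of the 8 genes, all except Sgcd. This table held 95.5% of the genes with a row in any table, so the presence of 7 complex genes in it is near that background. The METTL3 table held Sgca, Sgcd and Sntb1, 3 of the 8 genes, where the share over all genes with a row was 17.0%. The METTL14 table held Sgcd alone, 1 of the 8 genes, where that share was 10.7%. Both overexpression tables use the same GFP libraries in GM as their control, and the D4 table uses them too, so presence in more than 1 table is not independent.

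Grouped by their rows, Dmd, Utrn, Dag1, Sgcb and Dtna were in the D4 table alone, a pattern shared by 8242 genes (80.1% of those with a row). Sgca and Sntb1 were in the D4 and the METTL3 table, as were 724 genes (7.04%) that the METTL14 table lacks. Sgcd was in both overexpression tables but not in the D4 table, a pattern of 165 genes (1.60%). None of the 8 was in all 3 tables, which 644 genes (6.26%) were. Absence from a table does not show that a gene was equal between the groups compared.

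The other components and partners of the complex gave a list of 12 genes, of which 9 had a row and Sgcz, Sntg1 and Sntg2 had none. Plec, for the cytoskeletal linker plectin, stood highest, with an authors' mean normalized count of 23533, or 1299 per kb of exon, slightly above Dag1. Per kb of coding length Plec was at 1672, below Dag1 at 2829. The epsilon-sarcoglycan gene Sgce was at 58.2 per kb of exon, between Sgca and Sgcd. Sspn, for the membrane protein sarcospan, was at 141 per kb. The beta-2-syntrophin gene Sntb2 was at 86.8 per kb of exon, beside 130.0 for Sntb1. Per kb of coding length their order reversed, with 564 for Sntb2 and 430 for Sntb1. The second dystrobrevin gene Dtnb was at 18.0 per kb of exon, below Dtna. Nos1, for the neuronal nitric oxide synthase that syntrophin anchors, was the lowest of the 9 at 5.57 per kb, and still above Dmd. Lama2, for the laminin chain bound by dystroglycan in muscle, was at 74.5, the membrane-repair gene Dysf at 81.6 and the caveolin gene Cav3 at 87.0 per kb of exon. The median of the 9 was 81.6 per kb. All of them had a row in the D4 table, 2 of them (Lama2 and Dysf) also in the METTL3 table and none in the METTL14 table. The shares over all genes with a row were 95.5%, 17.0% and 10.7% for these tables, so nothing about these genes is read from the counts. The list was not exhaustive. Drp2, for dystrophin-related protein 2, was left out of it and is named after its values were seen, with 95.2 mean normalized counts per kb of exon and rows in the D4 and METTL3 tables.

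Dystroglycan binds laminin only after sugar chains have been built on it by a series of enzymes, and 9 of 13 genes for these enzymes and their sugar donors had a row. Pomt1, B4gat1, Gmppb and Dpm3 had none. Pomgnt1, which extends the O-mannose chain, was the highest at 291 mean normalized counts per kb of exon. Dpm2 and Dolk, which act in the supply of dolichol-linked mannose, were at 249 and 197, while Dpm1, which acts in the same supply, was the lowest at 16.8 per kb. Pomt2, which starts the chain, was at 84.9, and the kinase gene Pomk at 112 per kb. The transferase genes B3galnt2, Rxylt1 and Pomgnt2 were at 99.8, 148 and 35.2 per kb. The highest and lowest genes depended on the length used. Per kb of coding length Dpm2 was the highest at 1435, above Pomgnt1 at 804. Pomgnt2 was then the lowest at 58.7, below Dpm1 at 161. The median of the 9 was 112 per kb of exon, and all of them lay below Dag1. All 9 had a row in the D4 table, none had one in the METTL3 table, and Pomt2 was the only one of them in the METTL14 table, beside shares of 95.5%, 17.0% and 10.7% over all genes with a row, so these counts too are no result about the list.

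**Figure D4:**
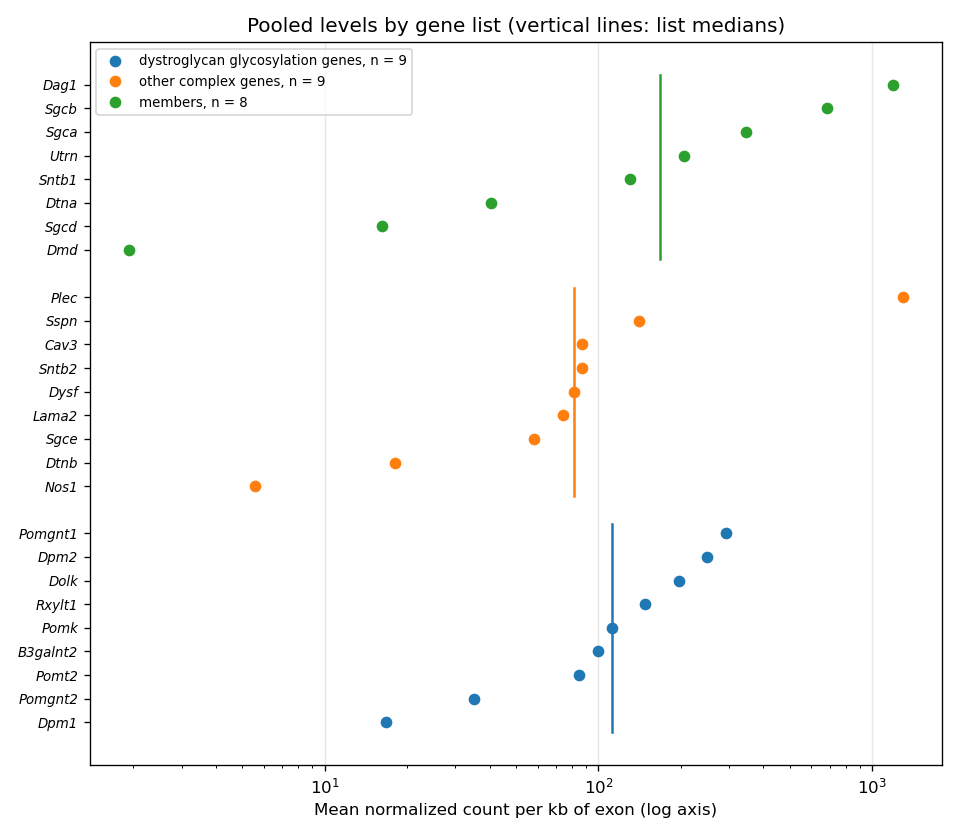
Authors' mean normalized count per kb of exon (log axis) for the 8 complex genes, the 9 other complex genes and the 9 dystroglycan glycosylation genes that had a row; vertical lines are list medians (167.7, 81.6 and 112). Points are pooled values without error, and the lists overlap over most of their range.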

How the data were processed

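For RNA-seq the authors used hisat2 for alignment to GRCm38, featureCounts with Ensembl genes for counting and DESeq2 for the comparisons; tool versions are not given in the sources used here. The 3 deposited tables hold only genes kept at a false discovery rate of 0.05 according to the authors. The mean normalized count is a signal that the authors averaged over libraries after division by size factors. The tables also hold the authors' log2 fold changes, standard errors, Wald statistics, p-values and adjusted p-values, and an unheaded value beside 1 gene in 2 tables, none of which were used.

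Genes were matched by Ensembl identifier to GENCODE M21, which is on the same build but another annotation release, and 10285 of 10289 matched. Means were divided by the union of exons, the longest transcript or the longest coding length. The share of listed genes with a lower level was computed for each gene. Interval and percentile steps were tested on simulated data. Python 3.11.15, pandas 2.3.3, NumPy 2.4.6 and matplotlib 3.10.9 were used.

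Groups were taken from the titles of the samples. No test was made, because no value per library was used. The deposited tables give no depth. The genes named were the 8 members, a list of 12 other complex genes, a list of 13 glycosylation genes, cell type markers and the targeted genes; some genes first listed are not reported here. Members and lists were chosen with earlier results of these data known. A planned comparison of protein sequences was not made. Alternatives were the gene length, a minimum of 10 or 100 on the mean, protein-coding genes, and each table's own value.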

Additional observations from a re-analysis of the deposited data

How the results depend on the processing

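The gene length used was the only choice tried that could change a level. Each table's own value was equal, and the other choices acted only on shares and counts. The median level of the 8 genes was 212 per kb of the longest transcript and 386 per kb of coding length. Each gene's level rose under both by construction, because both lengths are shorter than its union of exons. The ratio of Utrn to Dmd fell to 92.6 with the longest transcript, 82.5 with the coding length and 76.9 with no length correction. The median share of listed genes below a complex gene was 61.1% when genes under a mean of 10 were left out, 60.2% at a minimum of 100, where Dmd drops out, and 60.6% among protein-coding genes. At the minimum of 100 the shares of single genes moved by up to -20.1 percentage points. The numbers of complex genes in each table were equal under both alternatives run, except in the D4 table at the minimum of 100. There it held 6 of the 7 complex genes left, beside 95.85% of all genes left. The 18 other complex and glycosylation genes with a row had 18 rows in the D4 table, 2 in the METTL3 table and 1 in the METTL14 table. With the 8 members these counts were 25, 5 and 2, higher by construction. The shares over all genes with a row were 95.5%, 17.0% and 10.7%, so nothing about these genes is read from the counts. The mean was equal in every table that listed a gene.

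No paired analysis was possible because no column belongs to a library. For the same reason leaving out a replicate was not run, and no spread between libraries is known. Genes without a row have no value, and the listed genes are the authors' selection, so shares are of listed genes and not of all genes expressed.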
